A study of Homo sapiens with 9 samples.

Results

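The protein-coding genes of chromosome 20 were followed in OVCA433 cells, an established human line of ovarian serous adenocarcinoma. A gene was a member when it was listed on chromosome 20 as protein coding and averaged at least 10 CPM (counts scaled to a common library total) over the 3 control libraries. The rule set aside 11 genes by name (LAMA5, JAG1, ID1, E2F1, BMP7, MYL9, TPX2, AURKA, UBE2C, GSS and BIRC7). This left 269 members of the 544 protein-coding genes and 1397 genes of any kind listed on the chromosome, in a table of 58676 genes. There were 87 members on the short arm (20p) and 182 on the long arm (20q), split at the middle of the widest gap between gene starts, between chr20:26208186 and chr20:28580709 on GRCh38. The chromosome was selected on measured values, because the fold changes of its genes with hairpin #1 against control were low in these same libraries. Therefore, every value of hairpin #1 against control, and of hairpin #3 against hairpin #1, is a description and supports nothing. The chromosome was also proposed for a difference between the hairpins, so the hairpin #3 libraries had a part in the choice. The control libraries had a part too, since they set the expression minimum and the fold changes with hairpin #1. Hairpin #3 against control is therefore not independent of the choice either.

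The cultures compared were all transduced OVCA433 cells grown in RPMI 1640 medium with fetal bovine serum. The control group carried a control vector, described in the study as empty in the RNA-seq methods, while the other 2 groups expressed an shRNA against the transcript of MPZL3, a predicted cell adhesion molecule, as either hairpin #1 or hairpin #3. Each group had libraries A, B and C, which gives 9 in all and 3 for each group. The study calls them biological replicates, but whether they came from separate transductions was not given in the sources used here, so p-values measure the spread between these libraries. The libraries were poly(A)-selected and carried no strand, so reads of overlapping genes cannot be told apart, and in bulk RNA fewer cells with a transcript cannot be told apart from less transcript per cell.

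Library totals ran from 16850854 to 23890191 counts. The control cells had 19.51 ± 3.42 CPM (SD, n = 3) of MPZL3. This compares with 1.885 ± 0.0926 for hairpin #1 and 1.575 ± 0.514 for hairpin #3, and neither knockdown group overlapped control. The epithelial markers KRT7, KRT8, KRT18 and EPCAM and the Müllerian factor PAX8 were present in control cells. EPCAM, however, had 402.6 ± 23.6 CPM there against 5.48 ± 1.25 for hairpin #1 and 8.931 ± 1.34 for hairpin #3. PAX8 went the other way, at 96.99 ± 16.7 CPM in control cells, 199.9 ± 12.2 for hairpin #1 and 207.3 ± 20.6 for hairpin #3. In the same order, KRT7 averaged 3430, 2743 and 2215 CPM, KRT8 4816, 2114 and 2148, and KRT18 2175, 794.7 and 845.6. WT1 was at 0 in every library. MUC16 had 3.18 ± 1.02 CPM in control cells and 0 counts in all 6 knockdown libraries. The summed level of 5 fibroblast markers was 17.2 to 20.7 CPM in control cells, against 105 to 442 for hairpin #1 and 500 to 868 for hairpin #3. Most of it came from COL1A1, at 17.88 ± 1.88, 312.2 ± 188 and 641.2 ± 186 CPM. PDGFRB averaged 0.5551, 13.8 and 16.82 CPM, COL1A2 and COL3A1 at most 2.65 CPM in any group, and DCN was at 0 throughout. The 3 leukocyte markers together stayed at or below 1.31 CPM in each library. The sum of 3 endothelial markers was 0.398 to 0.621 CPM in control libraries, 1.5 to 4.07 for hairpin #1 and 3.3 to 5.85 for hairpin #3, which in the knockdown libraries came mostly from CDH5. The part of these differences in the chromosome 20 values was not tested. In every group the A library stood apart: chi-square per degree of freedom between counts was 6.52 to 18.4 for B with C and 14.2 to 39.6 for pairs with A, and the deviations of the A libraries from their group means correlated at 0.31 to 0.36 between groups. Results are therefore also given from libraries B and C alone, a choice made after seeing the data.

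Chromosome 20 is a small, gene-dense chromosome whose long arm is recurrently gained in carcinomas of the ovary, breast and colon. Its genes serve unrelated functions, from splicing, the proteasome and DNA replication to the secreted whey acidic protein inhibitors, which lie in a cluster on 20q. The shift is described below along the chromosome, and genes that left it are described one by one. Why genes shifted or left the shift was not tested.

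The promoters of 5 genes that left the common shift are shown, all those with an entry among the genes named below for the largest changes. WFDC2, SULF2 and ZNF334 were among the largest falls with hairpin #1, while SOX12 and PREX1 rose. Capitals mark the letters CACCTG or its reverse complement CAGGTG, an E-box that zinc finger repressors of epithelial genes such as ZEB1 and SNAI1 are known to bind. Sequences are from RefSeq on GRCh38.p14, 5′ to 3′ on the strand of the gene, from 250 bases before to 50 bases after the annotated start, and these are 5 of the 15 genes named for the largest changes with either hairpin.
WFDC2 promoter, chr20:45469503-45469802, plus strand: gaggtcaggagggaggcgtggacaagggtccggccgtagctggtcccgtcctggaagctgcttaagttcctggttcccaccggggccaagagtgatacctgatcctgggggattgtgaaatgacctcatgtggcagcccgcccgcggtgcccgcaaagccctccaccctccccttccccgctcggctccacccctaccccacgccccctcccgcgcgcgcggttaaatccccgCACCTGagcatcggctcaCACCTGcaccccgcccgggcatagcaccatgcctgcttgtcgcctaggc
SULF2 promoter, chr20:47786578-47786877, minus strand: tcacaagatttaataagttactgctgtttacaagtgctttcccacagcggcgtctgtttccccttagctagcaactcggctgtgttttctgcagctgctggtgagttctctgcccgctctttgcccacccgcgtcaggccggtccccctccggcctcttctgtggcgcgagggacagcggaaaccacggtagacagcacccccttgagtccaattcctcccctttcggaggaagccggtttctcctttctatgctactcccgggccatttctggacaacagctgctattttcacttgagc
ZNF334 promoter, chr20:46513510-46513809, minus strand: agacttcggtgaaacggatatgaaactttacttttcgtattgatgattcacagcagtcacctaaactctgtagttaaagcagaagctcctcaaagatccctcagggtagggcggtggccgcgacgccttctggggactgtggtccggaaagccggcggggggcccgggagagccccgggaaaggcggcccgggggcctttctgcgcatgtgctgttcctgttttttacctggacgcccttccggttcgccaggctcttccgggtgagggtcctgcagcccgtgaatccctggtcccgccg
SOX12 promoter, chr20:325302-325601, plus strand: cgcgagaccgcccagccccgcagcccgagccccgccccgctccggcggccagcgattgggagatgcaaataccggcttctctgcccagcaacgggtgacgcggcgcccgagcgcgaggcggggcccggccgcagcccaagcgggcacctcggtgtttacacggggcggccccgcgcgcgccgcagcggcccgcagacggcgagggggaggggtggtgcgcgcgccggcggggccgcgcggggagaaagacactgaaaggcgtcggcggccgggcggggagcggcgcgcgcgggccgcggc
PREX1 promoter, chr20:48827950-48828249, minus strand: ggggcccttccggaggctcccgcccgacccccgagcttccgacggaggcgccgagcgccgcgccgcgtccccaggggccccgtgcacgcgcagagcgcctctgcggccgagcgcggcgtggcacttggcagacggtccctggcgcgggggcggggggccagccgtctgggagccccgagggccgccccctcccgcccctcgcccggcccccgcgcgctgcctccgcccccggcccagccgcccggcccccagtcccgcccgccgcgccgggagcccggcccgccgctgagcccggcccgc
The WFDC2 window held CACCTG 2 times, starting 17 bases before and at base 2 after the annotated start, while the other 4 windows, of SULF2 and ZNF334 as much as of SOX12 and PREX1, held neither form. The GC content was 67.3% for WFDC2, 55.7% for SULF2, 60% for ZNF334, 80.3% for SOX12 and 85.7% for PREX1. Across the table, 20.6% of 35116 promoters held the motif on either strand. It stood in 38 of the 214 members with an entry (17.8%), in 5 of the 11 such members called at least 2-fold lower with hairpin #1 and in 4 of the 22 at or above their control level. A match describes letters in this window only.

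Members took a smaller share of all reads in the hairpin #1 cells. They held 3.3%, 3.401% and 3.432% of counts in control libraries A, B and C, 2.617%, 2.513% and 2.62% with hairpin #1, and 3.423%, 3.473% and 3.488% with hairpin #3. All 3 hairpin #1 libraries were below every library of the other groups.

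The shift of a library was the median over members of the log2 ratio of its CPM to the mean control CPM, minus the same median over 8915 genes of the other autosomes that met the same rule. Each control library was set against the mean of the other 2. The shift was −0.35, −0.35 and −0.29 in hairpin #1 libraries A, B and C (mean −0.33 ± 0.034, SD, n = 3), which is 0.796 of the control level, and −0.33 from libraries B and C alone. It was −0.05, 0.01 and 0.03 in the control libraries and −0.01, 0.01 and 0.04 with hairpin #3. In the 3 hairpin #1 libraries 87%, 84.8% and 80.3% of members were below 0, against 50.9%, 49.4% and 46.5% with hairpin #3.

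With hairpin #1 both arms were shifted. On 20p the libraries were at −0.30, −0.36 and −0.29, and on 20q at −0.37, −0.32 and −0.29. The difference of 20q minus 20p ran from −0.07 to 0.04 over the hairpin #1 libraries and from −0.05 to 0.06 over the control libraries. These ranges overlapped, with hairpin #1 library A, at −0.07, just below the lowest control library. With hairpin #3, 20p libraries were at 0.03, 0.04 and 0.04 and 20q libraries at −0.02, −0.01 and 0.05. From libraries B and C alone, 20p was at −0.34 with hairpin #1 and 0.03 with hairpin #3, and 20q at −0.33 and −0.01.

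**Figure D1:**
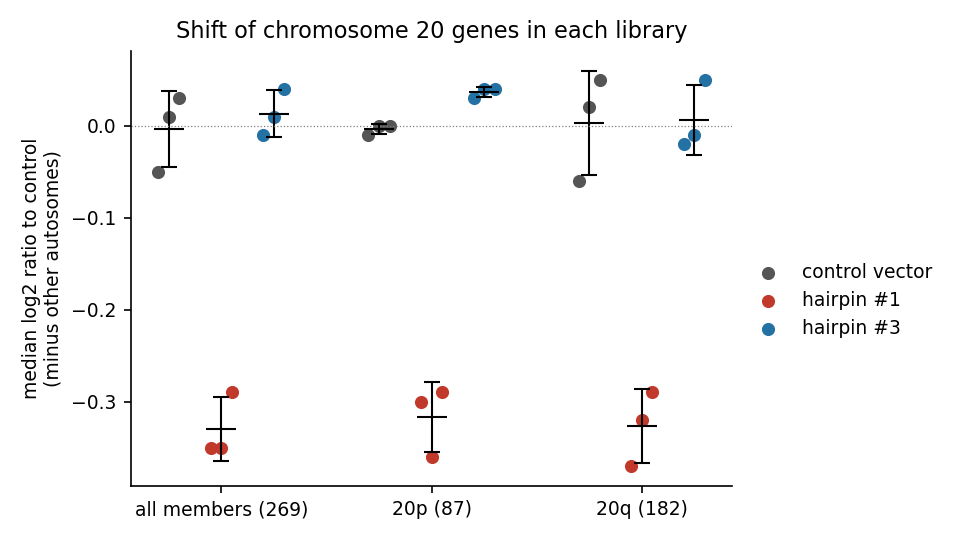
Median log2 ratio to control (vertical axis, minus the same median over the other autosomes) for all members, 20p and 20q. Points are libraries, bars the mean ± SD of 3 libraries. The hairpin #1 libraries sit between −0.37 and −0.29, while the others stay between −0.06 and 0.05.

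Hairpin #3 against control is not independent of the choice of the chromosome, so the tests of it are descriptions too. The shift over members differed by 0.01 between hairpin #3 and control (exact permutation test over libraries, two-sided p = 0.5, adjusted over 3 tests p = 0.75). For 20q the difference was 0.00 (exact permutation p = 1, adjusted p = 1). For 20p it was 0.04 with every hairpin #3 library above every control library, at the smallest p that 3 against 3 libraries allow (exact permutation p = 0.1, adjusted p = 0.3), so this design cannot reach 0.05.

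The shift ran along the whole chromosome. Members were divided by start position into 13 windows of 20 to 27 genes, 4 on 20p and 9 on 20q. With hairpin #1 the window means ran from −0.50 to −0.22. All 3 hairpin #1 libraries lay below all 3 hairpin #3 libraries in 13 of 13 windows, and below all control libraries in 11 of 13. The lowest window was the third on 20p, from SLC23A2 to NDUFAF5 (chr20:4852356-13821582), at −0.48, −0.56 and −0.45 in libraries A, B and C. Its neighbour from VPS16 to RASSF2 (chr20:2840703-4823645) was the highest, at −0.22, −0.24 and −0.19. The end of 20q, from OGFR to PCMTD2, was at −0.40, −0.49 and −0.31.

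Hairpin #3 windows scattered around control, from −0.11 in the SLC23A2 to NDUFAF5 window to 0.18 in the first window of 20p, from ZCCHC3 to PCED1A. That first window was the single window in which the hairpin #3 libraries, at 0.13, 0.16 and 0.25, did not overlap the control libraries, at −0.03, −0.01 and −0.01. Both hairpins are set against the same control libraries. Subtracting hairpin #1 from hairpin #3, which leaves the control out, gave 0.27 to 0.45 over the 13 windows with an SD of 0.0572 between windows. Over 438 windows pooled from the other autosomes this SD was 0.15. That value also holds differences between chromosomes, whose medians ran from −0.18 on chromosome 5 to 0.4 on chromosome 4. It is therefore not a like measure for the spread within chromosome 20. Of the 438 windows, 29 differed by 0.27 or more, of which 18 lay on chromosome 4, 8 on chromosome 9, 2 on chromosome 8 and 1 on chromosome 12.

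**Figure D2:**
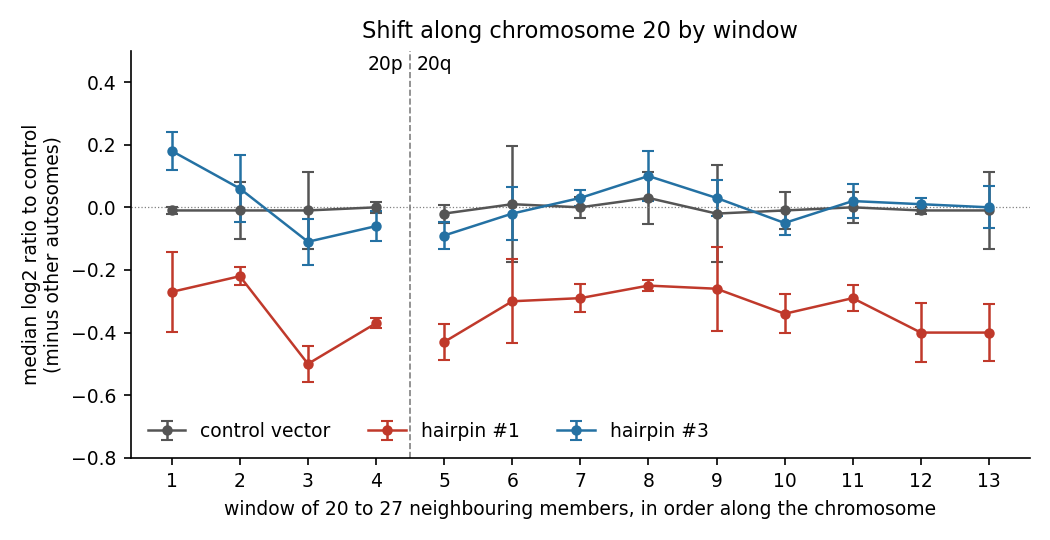
Median log2 ratio to control (vertical axis, minus the other autosomes) in 13 windows of neighbouring members (horizontal axis, in chromosomal order). Points and bars are the mean ± SD of 3 libraries. Hairpin #1 stays between −0.50 and −0.22 on both arms, while hairpin #3 stays between −0.11 and 0.18.

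Gene by gene, the 269 members were fitted with all 15975 tested genes in edgeR's quasi-likelihood model, and a gene was called at a Benjamini-Hochberg adjusted p of 0.05 or less. With hairpin #1 the median fitted log2 fold change of members was −0.35 (quartiles −0.56 and −0.16), against −0.01 for the other autosomes under the same rule and 0.00 for all tested genes. There were 234 members (87%) below 0, against 51.6% on the other autosomes. The fit called 148 members lower, where the background was 19.7% of all tested genes, and 16 higher, where it was 18%. From libraries B and C alone 158 were called lower and 17 higher. Backgrounds in this text are from the fits to all 9 libraries, and none is given for fits to fewer libraries. At a fold of at least 2, 22 members were called lower (background 8.55%) and 3 higher (background 7.76%). In 168 members all hairpin #1 libraries were below all control libraries (background 24.7%), and in 17 all were above (background 22.6%).

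Between the hairpins most members were offset in the same direction. The median log2 difference of hairpin #3 minus hairpin #1 was 0.33, with quartiles at 0.23 and 0.45, and 257 members (95.5%) were above 0, against a median of −0.02 and 45.1% above 0 on the other autosomes. The fit called 100 members higher with hairpin #3 (background 6.33%) and 2 lower (background 5.3%). The calls in either direction were 102 with all libraries (background 11.6%), 50 without hairpin #3 library B and 131 from libraries B and C alone. At a fold of at least 2, 7 were called (background 3.93%), 6 higher (background 2.22%) and 1 lower (background 1.72%). In 178 members all hairpin #3 libraries were above all hairpin #1 libraries (background 14.5%), against 3 below (background 13.2%).

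**Figure D3:**
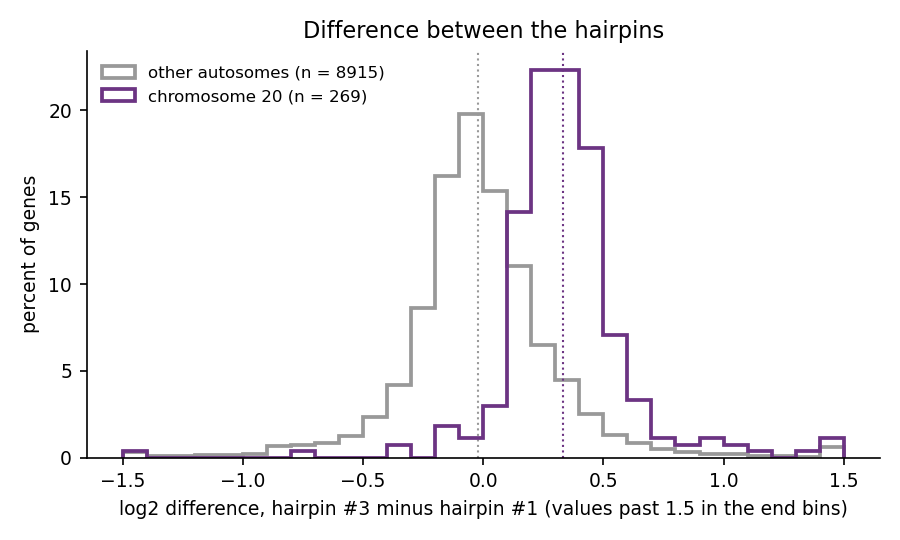
Percent of genes (vertical axis) by log2 difference of hairpin #3 minus hairpin #1 (horizontal axis, bins of 0.1), for the 269 members and the 8915 genes of the other autosomes. Dotted lines mark the medians, 0.33 and −0.02.

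With hairpin #3 against control, the fit called 51 lower (19% of members, background 18.1%) and 37 higher (13.8% of members, background 16.6%), and at a fold of at least 2 it called 10 lower (3.72% of members, background 7.83%) and 6 higher (2.23% of members, background 7.46%). From libraries B and C alone, 57 were called lower and 42 higher at the first threshold. Calls were near the background at the first threshold and below it at a fold of at least 2. The median log2 fold change was −0.03 with quartiles at −0.24 and 0.19, the same median as on the other autosomes. Both hairpins were also pooled into a single knockdown arm of 6 libraries. Here 88 members were called (background 33%), 71 of them lower (background 17%) and 17 higher (background 15.9%), and at a fold of at least 2 there were 14 lower (background 7.4%) and 4 higher (background 7.26%). The 88 calls became 58 without control library C, 68 from libraries B and C alone and 134 when the pooled arm was taken from the 3-group model.

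Other genes of the chromosome had medians of the same sign between the hairpins, while those below the minimum were near 0 with hairpin #1 against control. The 69 tested protein-coding genes of chromosome 20 below the expression minimum had a median difference between hairpins of 0.34, the 69 tested genes that are not protein coding 0.42, and the 9 tested genes set aside by name 0.45. Against control, the genes below the minimum had medians of −0.08 with hairpin #1 (53.6% below 0) and 0.26 with hairpin #3, those that are not protein coding −0.22 and 0.17, and those set aside −0.36 and 0.03. The genes below the minimum were taken by a low control level, which is the denominator of both fold changes. Their medians against control are therefore not independent of the minimum, and genes below it on other autosomes are not given for comparison. Just outside the minimum lay SLC52A3 and NAPB at 9.486 and 9.652 CPM, and just inside LRRN4 and SPTLC3 at 10.518 and 11.306 CPM. Among members, the median with hairpin #1 was −0.36 for those with 10 to 20 CPM in control cells, −0.29 for 20 to 50 CPM, −0.31 for 50 to 100 CPM and −0.41 above 100 CPM. Correlations across members of the log2 values with expression level, gene length and position all lay between −0.09 and 0.15 (n = 269 genes, which share libraries and are not independent).

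Of 23 chromosomes, chromosome 20 had the third lowest median with hairpin #1, after chromosomes 4 and 8 (both −0.41), and the second highest difference between hairpins, after chromosome 4 (0.40). Chromosome 8 was also low with hairpin #3 (−0.27), unlike chromosome 20. Chromosome 4 was the most similar, at −0.35, −0.38 and −0.45 in hairpin #1 libraries A, B and C. However, its control libraries spread from −0.11 to 0.11, wider than the −0.05 to 0.03 of chromosome 20.

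**Figure D4:**
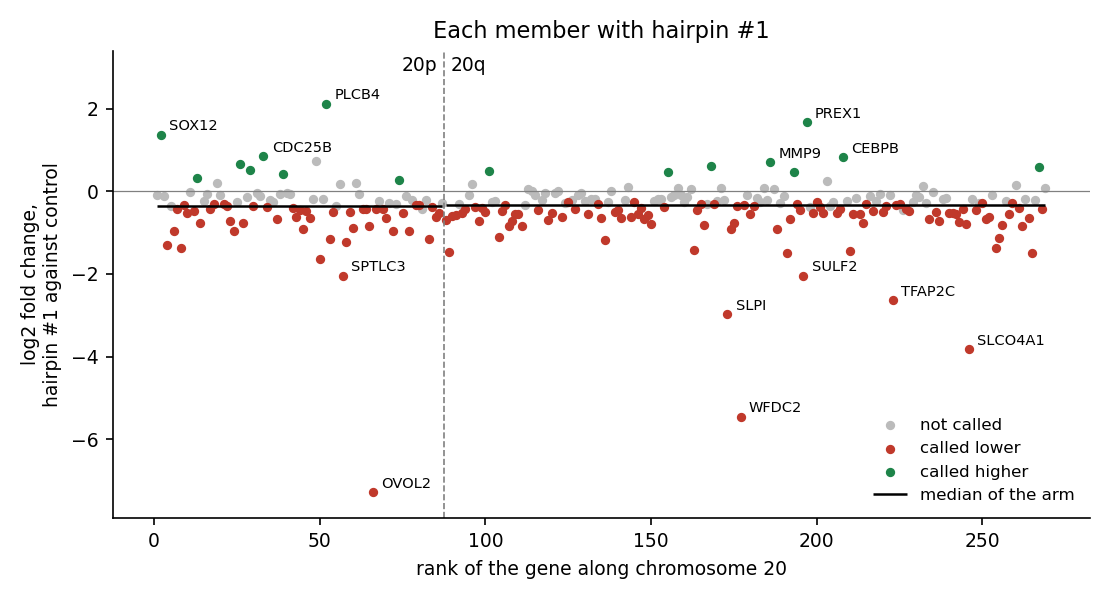
Fitted log2 fold change with hairpin #1 against control (vertical axis) of each member by rank along the chromosome (horizontal axis). Colours give the call at an adjusted p of 0.05, and black lines the medians of the arms, −0.36 for 20p and −0.34 for 20q. Most points lie just under 0 on both arms, with OVOL2 lowest and PLCB4 highest.

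Members were called lower with hairpin #1 in each of 8 functional lists, whose counts are read beside the backgrounds given above. Of 26 members in RNA processing and splicing, 15 were called lower and 0 higher with hairpin #1, and with hairpin #3 2 were called lower and 1 higher. EIF2S2, the beta subunit of the initiation factor that brings the first tRNA to the ribosome, had 323.7, 305.2 and 284.2 CPM in control libraries A, B and C, 187.8, 156 and 165.5 with hairpin #1 and 266, 235.2 and 210.8 with hairpin #3. All libraries of each knockdown group were below control, and hairpin #3 differed from control by −0.36 ± 0.111 (log2 ± SE, edgeR adjusted p = 0.02221). This call was lost without control library A (adjusted p = 0.07252) or B (0.05837) or hairpin #3 library B (0.06776) or C (0.1092). Its neighbour RALY, an RNA-binding protein whose gene overlaps it, had 294.4 ± 8 CPM in control cells, 233 ± 23.2 with hairpin #1 and 265.5 ± 0.241 with hairpin #3. RPS21, a small ribosomal subunit protein, had 288.4, 352.4 and 336.5 CPM in control cells and 227.6, 232.1 and 270.8 with hairpin #1, while its hairpin #3 libraries at 285.9, 351.9 and 461 overlapped control.

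Protein turnover and vesicle transport held 29 members, of which 18 were called lower and 1 higher with hairpin #1, and 6 lower and 2 higher with hairpin #3. CSE1L, the export receptor of importin alpha, had 469.4 ± 47.6 CPM in control cells, 326.4 ± 63.6 with hairpin #1 and 420.4 ± 69 with hairpin #3. PSMA7, an alpha subunit of the proteasome core, was nearer to control, with 381.3, 401.8 and 385.8 CPM there and 361.5, 325.7 and 359.5 with hairpin #1. The groups did not overlap, although the gene was not called. CTSZ, the lysosomal protease cathepsin Z, stayed outside the shift with 418.4 ± 34.4 CPM in control cells and 458.9 ± 53.3 with hairpin #1.

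Of 23 members in cell cycle, DNA replication and repair, 14 were called lower and 1 higher with hairpin #1, and 2 lower and 1 higher with hairpin #3. PCNA, the sliding clamp of DNA polymerase, had 416.9, 357.5 and 359.2 CPM in control cells and 302.2, 193.8 and 239.4 with hairpin #1, with no overlap. MYBL2, a transcription factor of cycling cells, had 413.8 ± 71.2 and 374.9 ± 56.9 CPM, a difference smaller than the spread between libraries. CENPB, which binds centromeric repeats, had 311.8 ± 0.998 and 287 ± 29.2. The gene called higher in this group was CDC25B, the phosphatase that activates cyclin-dependent kinases, which is described with the genes outside the shift.

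Chromatin and transcription factors made up 31 members, of which 14 were called lower and 3 higher with hairpin #1. With hairpin #3 4 were called lower and 8 higher, and 15 were called higher between the hairpins. ZNF512B, a zinc finger protein, had 233.8, 213.9 and 216.3 CPM in control cells, 142.2, 129.8 and 153.7 with hairpin #1 and 234.2, 204 and 212.8 with hairpin #3. It overlaps SAMD10 and PRPF6 on unstranded reads. ASXL1, a Polycomb-associated regulator, had 167.3 ± 12.2 CPM in control cells and 157.1 ± 9.05 with hairpin #1, and rose to 207.2 ± 3.47 with hairpin #3 (log2 0.31 ± 0.0905, edgeR adjusted p = 0.01733), a call lost without control library B (adjusted p = 0.0897) or C (0.074) or hairpin #3 library B (0.07069).

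Metabolic and mitochondrial genes numbered 27, with 14 called lower and 1 higher with hairpin #1, and 5 lower and 1 higher with hairpin #3. AHCY, which hydrolyses S-adenosylhomocysteine, had 413.7 ± 34.7 CPM in control cells, 249 ± 18.9 with hairpin #1 and 326.2 ± 16.1 with hairpin #3 (log2 −0.34 ± 0.1, edgeR adjusted p = 0.01675), where the call was lost without control library C (adjusted p = 0.08243) or hairpin #3 library B (0.0719). PYGB, the brain form of glycogen phosphorylase, had 256.4 ± 22.4, 198.6 ± 5.83 and 226 ± 11.4. CYP24A1, which inactivates vitamin D, had 340.4, 404.6 and 569.9 CPM in control cells and 375.8, 357.2 and 383.2 with hairpin #1, within the control range. It rose with hairpin #3, at 631.3, 649.2 and 720.3 CPM, all above control (log2 0.61 ± 0.154, edgeR adjusted p = 0.007575).

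Signalling genes included 24 members, of which 12 were called lower and 3 higher with hairpin #1, and 5 lower and 4 higher with hairpin #3. GNAS, the alpha subunit of the stimulatory G protein, had 1216 ± 80.1 CPM in control cells, 1144 ± 161 with hairpin #1 and 1443 ± 216 with hairpin #3, with all groups overlapping. FKBP1A, the binding protein of tacrolimus, was at 364.4 ± 35.1, 360.2 ± 40.2 and 471.6 ± 83.9. Among 20 genes of the gained 20q segment in carcinomas, 12 were called lower and 0 higher with hairpin #1, 4 lower and 2 higher with hairpin #3, and 8 higher and 0 lower between the hairpins. EEF1A2, a tissue-restricted elongation factor whose reads can be shared with its near copy EEF1A1, had 488.9, 643.4 and 764.4 CPM in control cells, 215.5, 241.2 and 277.9 with hairpin #1 and 428.3, 456.4 and 588.7 with hairpin #3. DNA of these cells was not analysed here.

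Adhesion, matrix and secreted inhibitor genes were the group in which hairpin #3 was called most often. Of 20 members, 14 were called lower and 2 higher with hairpin #1, while with hairpin #3 12 were called lower and 4 higher. TGM2, the matrix crosslinking enzyme tissue transglutaminase, was among the most abundant members, with 2988, 3453 and 3789 CPM in control cells and 2502, 1775 and 2143 with hairpin #1. With hairpin #3 it had 4008, 4343 and 4311 CPM, all above control, but was not called (log2 0.31 ± 0.138, edgeR adjusted p = 0.1046). RRBP1, a ribosome-binding protein of the endoplasmic reticulum, had 307.2 ± 18.2 CPM in control cells, 228.1 ± 21.6 with hairpin #1 and 251.5 ± 13 with hairpin #3 (log2 −0.29 ± 0.0988, edgeR adjusted p = 0.03694). The RRBP1 call was lost without control library B (adjusted p = 0.08488) or C (0.1284), without hairpin #3 library B (0.1304) or C (0.09611) and with no filter on low counts (0.07711). In all, 175 members stood in these lists, 25 of them in more than 1, and 94 in none.

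Several members fell far more than the common shift, and of the 10 with the largest falls 9 were called lower with hairpin #3 too (background 18.1%). Both calls use the same control libraries, by which these genes were picked. OVOL2, a zinc finger factor that maintains the epithelial state (chr20:17956979-18059188), had 19.32, 16.62 and 17.83 CPM in control cells. It was down to 7 counts in all over the 3 hairpin #1 libraries, a ratio of 165 (95% exact binomial interval 79.8 to 411, counting error only), and to 16 counts with hairpin #3, a ratio of 63.8 (39.1 to 112). WFDC2, the secreted protein HE4 that is used as a serum marker of ovarian cancer (chr20:45469706-45481532), had 80.29, 126 and 107.7 CPM in control cells, 2.71, 2.493 and 1.972 with hairpin #1 and 1.295, 1.646 and 1.243 with hairpin #3. With hairpin #3 its log2 change was −6.23 ± 0.21 (edgeR adjusted p = 2.092e-10).

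SLPI, a secreted inhibitor of leukocyte proteases near WFDC2 on 20q, had 13.95, 37.47 and 23.75 CPM in control cells, 2.57, 5.647 and 1.501 with hairpin #1 and 5.061, 8.998 and 5.524 with hairpin #3 (log2 −1.94 ± 0.402, edgeR adjusted p = 0.001966). TFAP2C, the transcription factor AP-2 gamma, had 15.69, 13.74 and 12.23 CPM in control cells and 2.236 ± 0.0381 with hairpin #1, and was lower still with hairpin #3 at 0.3531, 0.9876 and 1.059 (log2 −4.08 ± 0.264 against control, edgeR adjusted p = 6.213e-08). SULF2, which removes sulfate groups from heparan sulfate, was at 14.49 ± 1.11, 3.545 ± 1.26 and 2.845 ± 0.598 CPM (hairpin #3 log2 −2.35 ± 0.245, edgeR adjusted p = 6.196e-06). FERMT1, the integrin activator kindlin-1, was at 71.42 ± 4.98, 22.74 ± 5.82 and 28.31 ± 3.31 CPM. In each of these genes both knockdown groups lay below the control libraries.

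Other large falls with hairpin #1 were not matched in size with hairpin #3. SLCO4A1, an organic anion transporter, had 16.13, 18.91 and 17.06 CPM in control cells, 2.15, 0.5596 and 0.9432 with hairpin #1 and 7.473, 5.487 and 4.879 with hairpin #3. SPTLC3, a subunit of serine palmitoyltransferase, was at 11.28 ± 0.296, 2.741 ± 0.229 and 7.69 ± 0.953 CPM. ZNF334, a zinc finger protein, was at 12.11 ± 1.95 CPM in control cells and 4.292 ± 1.46 with hairpin #1, while its hairpin #3 libraries at 12.42, 12.29 and 14.22 overlapped control. In these 3 genes the hairpin #1 and hairpin #3 libraries did not overlap. SAMD10 was lower with both, at 25.11 ± 2.92, 8.881 ± 0.995 and 11.75 ± 1.87 CPM.

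**Figure D5:**
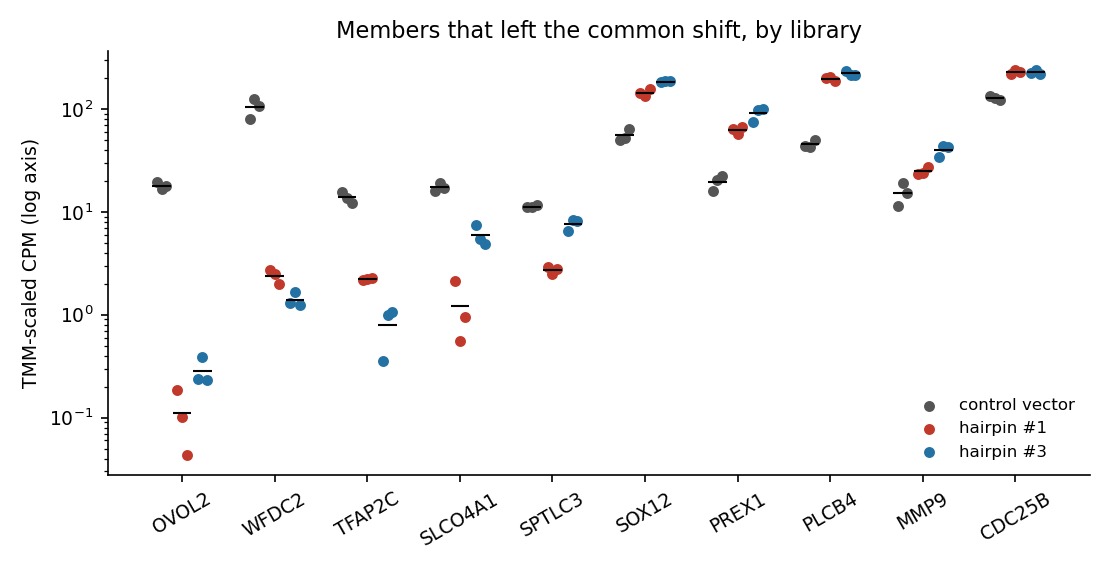
CPM in each library (vertical log axis, scaled by TMM) of 10 members that left the common shift. Points are libraries and lines the group means. OVOL2, WFDC2 and TFAP2C were low with both hairpins, SLCO4A1 and SPTLC3 were lowest with hairpin #1, and SOX12, PREX1, PLCB4, MMP9 and CDC25B were above control with both.

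A gene was said to escape the shift at a fitted log2 fold change of 0 or more with hairpin #1. This left 35 members (13%), against 48.4% of the other autosomes at or above 0, with 12 of 87 on 20p and 23 of 182 on 20q. Among the 35, 2 pairs were direct neighbours along the chromosome. In 17 of the 35 every hairpin #1 library was above every control library. The control level of the 35 was lower, with a median of 45.7 CPM against 78.4 for the other members. That level is the denominator of the fold change that defines escape, so this comparison is not independent of the definition.

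With hairpin #3 the escaping genes were also above control. All 35 were above 0 with hairpin #3 against control. Of them 27 were called higher (background 16.6%) and 0 lower (background 18.1%), with medians of 0.25 with hairpin #1 and 0.58 with hairpin #3. Both comparisons share the control libraries, by which these genes were picked. The difference between the hairpins does not use the control libraries, and in 30 of the 35 it was above 0. It does use the hairpin #1 libraries, by which these genes were also picked, so it is not independent of the definition either. Here 10 were called higher (background 6.33%) and 0 lower (background 5.3%). Its median was 0.28, beside 0.34 for the 234 members below 0 with hairpin #1.

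PLCB4, a phospholipase C that acts downstream of G protein-coupled receptors (chr20:9068763-9481242), rose most. It had 43.87, 42.35 and 49.46 CPM in control cells, 198.6, 206.1 and 186.2 with hairpin #1 and 236.3, 215.3 and 215.6 with hairpin #3 (log2 2.30 ± 0.099, edgeR adjusted p = 1.541e-09). PREX1, an exchange factor that activates the GTPase Rac, had 16.08, 20.5 and 22.32 CPM in control cells, 63.88, 57.13 and 67.14 with hairpin #1 and 75.14, 98.65 and 100.2 with hairpin #3 (log2 2.22 ± 0.146, edgeR adjusted p = 7.253e-08). SOX12, a transcription factor of the SoxC group, had 50.56, 52.06 and 64.47 CPM in control cells, 142.1, 132.8 and 156.9 with hairpin #1 and 181.6, 185.9 and 187.6 with hairpin #3 (log2 1.73 ± 0.111, edgeR adjusted p = 5.571e-08). In all 3 genes the hairpin #3 libraries were also above every hairpin #1 library.

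MMP9, the matrix metalloproteinase gelatinase B, had 11.48, 19.21 and 15.29 CPM in control cells, 23.27, 23.86 and 27.57 with hairpin #1 and 34.37, 43.29 and 42.67 with hairpin #3 (log2 1.39 ± 0.166, edgeR adjusted p = 2.243e-05). LRRN4, a leucine-rich repeat membrane protein, was more variable, at 16.61, 8.261 and 6.452 CPM in control cells, 31.17, 11.04 and 9.99 with hairpin #1 and 35.84, 19.2 and 20.21 with hairpin #3. Its hairpin #1 libraries overlapped control, and its call with hairpin #3 (log2 1.26 ± 0.433, edgeR adjusted p = 0.03771) was lost without control library B (adjusted p = 0.1315), control library C (0.1378) or hairpin #3 library A (0.1381), and in DESeq2 (0.08308).

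Further genes of which every hairpin #1 library was above control were chosen for mention after their values were seen. CEBPB, a factor of inflammatory gene expression, had 97.65 ± 17 CPM in control cells, 173.9 ± 33.1 with hairpin #1 and 161.1 ± 48.7 with hairpin #3. PRNP, the prion protein, was at 208.5 ± 5.79, 279.7 ± 33.2 and 256.9 ± 11.7 CPM. CDC25B was at 128 ± 4.99, 230 ± 10.4 and 227.5 ± 10.8. In these 3 genes hairpin #3 and hairpin #1 libraries overlapped, unlike in most members.

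Only 12 members were lower with hairpin #3 than with hairpin #1: CDC25B, PRNP, RASSF2, KIF16B, ACSS2, WFDC2, SLC2A10, SULF2, SLC9A8, CEBPB, ATP9A and TFAP2C. Of these, TFAP2C and ATP9A were called. ATP9A, a phospholipid flippase, had 79.17, 76.49 and 92.47 CPM in control cells, 58.36, 74.58 and 68.68 with hairpin #1 and 52.78, 52.07 and 48.93 with hairpin #3. The opposite case, lower with hairpin #1 but higher with hairpin #3 than control in both calls, held for 2 members. CDH4, the adhesion molecule R-cadherin, had 120.2, 103.6 and 128.2 CPM in control cells, 100.3, 70.71 and 80.3 with hairpin #1 and 171.5, 155.7 and 144.9 with hairpin #3. GZF1, a zinc finger protein, was at 28.55 ± 2.42, 22.5 ± 1.09 and 34.66 ± 1.12 CPM.

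The first and last member of each arm were named by position alone, and as single genes they do not stand for the shift at the ends. The first window of 20p and the last of 20q had means of −0.27 and −0.40 with hairpin #1. ZCCHC3, the first member of 20p, had 45.59 ± 1.62 CPM in control cells, 42.46 ± 1.74 with hairpin #1 and 51.97 ± 3.72 with hairpin #3, and NANP, the last, 18.48 ± 0.774, 15.2 ± 1.67 and 21.71 ± 1.8. Neither was called with hairpin #1. On 20q, the first member, HM13, a signal peptide peptidase, was lower with both hairpins, at 416.3 ± 71.6, 255.4 ± 35.7 and 271.9 ± 39.8 CPM. PCMTD2, the last member, was at 45.87 ± 2.98, 48.69 ± 8.76 and 63.79 ± 7.8 CPM, so its mean with hairpin #1 was not below control. Its hairpin #3 call (log2 0.48 ± 0.135, edgeR adjusted p = 0.01431) was lost without hairpin #3 library B (adjusted p = 0.05018) or library C (0.06245).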

How the data were processed

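RNA of 9 OVCA433 libraries was sequenced by the authors, who aligned the reads with HISAT2 2.0.5 and counted reads per gene with featureCounts 1.5.0-p3 on hg38, per the submitters' processing notes. The deposited values are raw read counts per gene, with no normalization. All 269 members were found in GENCODE 29 on GRCh38, 253 at the same position.

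From these counts, genes were filtered with filterByExpr (minimum count 10, minimum total 15), which kept 15975 genes holding 99.889% of the counts and all 269 members. Library sizes were scaled by TMM, and per-library CPM in the text carry this scaling, except for the membership rule, which used library totals. Groups were compared with the quasi-likelihood test of edgeR 4.0.16 in R 4.3.3, and p-values were adjusted by Benjamini-Hochberg across all genes tested. The 3 groups were fitted together, while the pooled knockdown arm had a fit of its own. The standard error of a fold change was computed from its F statistic. A count of 0.5 was added before library log ratios were taken. The fit was tested on simulated data. Genes described were the 3 most abundant members of each of 8 lists, the largest rises and falls of at least 2-fold, and the ends of each arm. The members and lists were chosen with earlier results of these data known. Libraries with the same letter were checked for pairing: their deviations from the group means correlated at 0.04 to 0.36, and above 0.1 in 6 of 9 pairs, so letters were not taken to pair libraries. Alternatives were other scalings, filters and thresholds, DESeq2 1.42.0, and leaving out each library or all A libraries.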

Additional observations from a re-analysis of the deposited data

Results flagged for a closer look

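The 102 members called between hairpin #3 and hairpin #1 were singled out because the effects of the 2 hairpins against the same control differed by a direct test (edgeR's quasi-likelihood test, Benjamini-Hochberg adjusted p of 0.05 or less, 3 libraries against 3). Of these, 100 were higher with hairpin #3 and 2, TFAP2C and ATP9A, were lower, against a background of 11.6% of tested genes called in either direction. Since the chromosome was chosen on the hairpin #1 libraries and for a difference between the hairpins, this count is a description. Single outlying libraries were not tested for in groups of 3.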

How the results depend on the processing

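Leaving out each library in turn moved the number of members called from 139 to 169 with hairpin #1, from 59 to 92 with hairpin #3, from 50 (without hairpin #3 library B) to 107 between the hairpins and from 58 (without control library C) to 102 for the pooled arm. The shift stayed between −0.35 and −0.31 for hairpin #1 (20p −0.34 to −0.30, 20q −0.35 to −0.30) and lay around 0 for hairpin #3 (−0.01 to 0.03, 20p 0.02 to 0.04, 20q −0.02 to 0.02). At an adjusted p of 0.01 there were 52 calls with hairpin #3, 43 between the hairpins and 50 for the pooled arm, and at a log2 fold change of at least 1 there were 25 with hairpin #1, 16 with hairpin #3, 7 between the hairpins and 18 pooled. The pooled arm taken from the 3-group model gave 134. With the letter as a replicate block, which the pairing check did not warrant, calls rose to 138 with hairpin #3 and 194 between the hairpins. Without centring on the other autosomes, the hairpin #3 shift was −0.03 over members, 0.00 on 20p and −0.03 on 20q, on the other side of or at 0. The mean over members in place of the median gave −0.27 with hairpin #1 (20p −0.26, 20q −0.28) and 0.08 with hairpin #3 (20p 0.12, 20q 0.06), and a minimum of 5 CPM gave 0.04 for 20p with hairpin #3. From libraries B and C alone, a choice made after seeing the data, the hairpin #3 shift was 0.03 on 20p and −0.01 on 20q, and the latter thereby changed sign. DESeq2's test called 171, 98, 135 and 97 members with hairpin #1, with hairpin #3, between the hairpins and for the pooled arm, which included 164, 87, 102 and 88 of the calls of edgeR. For 47 of 63 combinations of a named gene and a comparison no alternative changed the call, and none of 1134 values changed direction while 54 lost their call. For the alternative fits and for the adjusted p of 0.01, the share of all tested genes called is not given. A change in the number of members called there cannot be told from a change in calling over all genes. The cause of these changes was not tested.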
